A study of Mus musculus with 6 samples.

Results

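Transcript levels of enzymes of the tricarboxylic acid (TCA) cycle and of anaplerosis were measured in 3 WT and 3 Glut1-TG samples of mouse left ventricle, each on 1 Affymetrix array. All 6 samples came from male FVB mice aged 11 to 12 weeks on standard chow. The labels number the replicates and do not state that each came from a separate animal, so p-values measure the spread between these samples. Glut1-TG mice carried a human Glut1 transgene behind the alpha-myosin heavy chain promoter, which drives expression in cardiomyocytes, and WT mice carried no transgene. The comparison asked how cardiac gene expression differed when more glucose could enter cardiomyocytes. A set of 30 genes was defined by name, out of 18193 genes with a probe set whose annotation held 1 gene symbol. The rule uses no measured value, but the genes were chosen with earlier results of these data known. Of the 30 genes, 29 had such a probe set and all 29 were bright enough to be tested among 13178 genes. Ogdhl, a relative of the oxoglutarate dehydrogenase gene, had none under that symbol and was not analysed here.

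The TCA cycle in the mitochondrial matrix joins acetyl-CoA to oxaloacetate and oxidizes the resulting citrate back to oxaloacetate, which yields reduced cofactors for the respiratory chain. Anaplerosis is the refilling of the cycle with intermediates, for example by carboxylation of pyruvate, by deamination of glutamate or from propionyl-CoA, and cataplerosis is their withdrawal. The heart muscle is dense in mitochondria and draws most of its ATP from oxidation through this cycle.

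Signal is the linear, array-scaled brightness of a probe set, each array having a trimmed mean of 500. Where a gene had several probe sets, the one with the highest mean signal stands for it, and log2 fold changes are Glut1-TG minus WT, with the standard error (SE) from limma. "Fell" and "rose" are used for genes with an adjusted p under 0.05 in limma over all genes tested. Median signals of the arrays lay between 170.7 and 213, the highest being Glut1-TG replicate 1. All 14 cardiomyocyte markers were measured above the filter on low signal, 0 of them passed limma, and their summed signal was 536962 to 650236 in WT and 504376 to 537740 in Glut1-TG. Their median log2 fold change was -0.18. For 4 of the 14 all Glut1-TG arrays lay below all WT arrays (8.77% of all genes), and for 0 above. As the samples were whole tissue, fewer cells of a type and less RNA per cell cannot be told apart. Of 4 atrial markers, 2 rose (Myl4 and Myl7). The summed signal of the 4 was 5197 to 6121 in WT and 5262 to 8654 in Glut1-TG. Myl7 read 14.2 to 90.5 in WT, below the filter's signal of 115, and 314.9 to 712.8 in Glut1-TG. Nppa was at a log2 fold change of -0.07. Sln was under the filter and not tested, at 113.5 to 116.8 in WT and 39.4 to 65.3 in Glut1-TG. Of the endothelial, fibroblast, smooth muscle, macrophage, adipocyte, erythrocyte and neural markers tested, 0 passed limma. The 3 mouse Slc2a1 (Glut1) probe sets did not move together, since 1 read above WT and 2 read below WT in all Glut1-TG arrays, and what they detect of the human transgene was not tested. The ratio of the 3' to the 5' control probe set of beta-actin, a check on RNA integrity, was 1.31 to 1.40 in WT and 0.995 to 1.06 in Glut1-TG, whereas that of GAPDH was 0.817 to 0.827 and 0.789 to 0.830. The part of these shifts in the results below was not tested.

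Of the 29 genes tested, 2 fell in Glut1-TG hearts, Idh2 and Pcx, and 0 rose. Over all genes 0.599% fell and 0.258% rose. The median log2 fold change of the 29 genes was -0.13, against 0.02 over all genes tested, and 21 of the 29 were below 0. Under quantile normalization the medians were -0.031 and 0.0044, and after centring on the 14 cardiomyocyte markers, which moved the median of all genes by 0.19, they were 0.058 and 0.21. The 14 markers themselves had a median of -0.18 on the signals as deposited, below that of the 29 genes. With an unadjusted limma p under 0.05, 9 of the 29 were lower (5.81% of all genes) and 1 was higher (5.47% of all genes). The study's own thresholds ask that the higher group mean exceed the lower by over 25% and that the unadjusted p be under 0.05. With the methods' t-test they were met by 4 of the 29 on the lower side (2.65% of all genes), namely Idh2, Pcx, Sdhd and Glud1, and by 0 on the higher side (3.19% of all genes). After centring on the cardiomyocyte markers 2 of the 29 were lower by these thresholds. Without centring, 349 of all genes tested were lower and 421 higher by them. The paper reports more genes in each direction, so its own selection is not reproduced here.

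All 3 Glut1-TG arrays lay below all 3 WT arrays for 10 of the 29 genes, against 8.77% of all genes. They lay above for 1, against 8.67% of all genes. The 10 were Idh2, Idh3g, Ogdh, Sdhb, Sdhd, Sdhaf2, Fh1, Pcx, Got1 and Glud1, and the 1 was Me3. Among the WT arrays, replicate 1 was the highest for 18 of the 29 genes and replicate 2 the lowest for 22. The genes thus shared array differences and are not separate observations. Under quantile normalization 7 were below and 5 above, against 8.81% and 8.43% of all genes. Centring on the cardiomyocyte markers shifts all genes alike, and 4 of the 29 were then below and 7 above, against 1.74% and 21.8% of all genes.

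**Figure D1:**
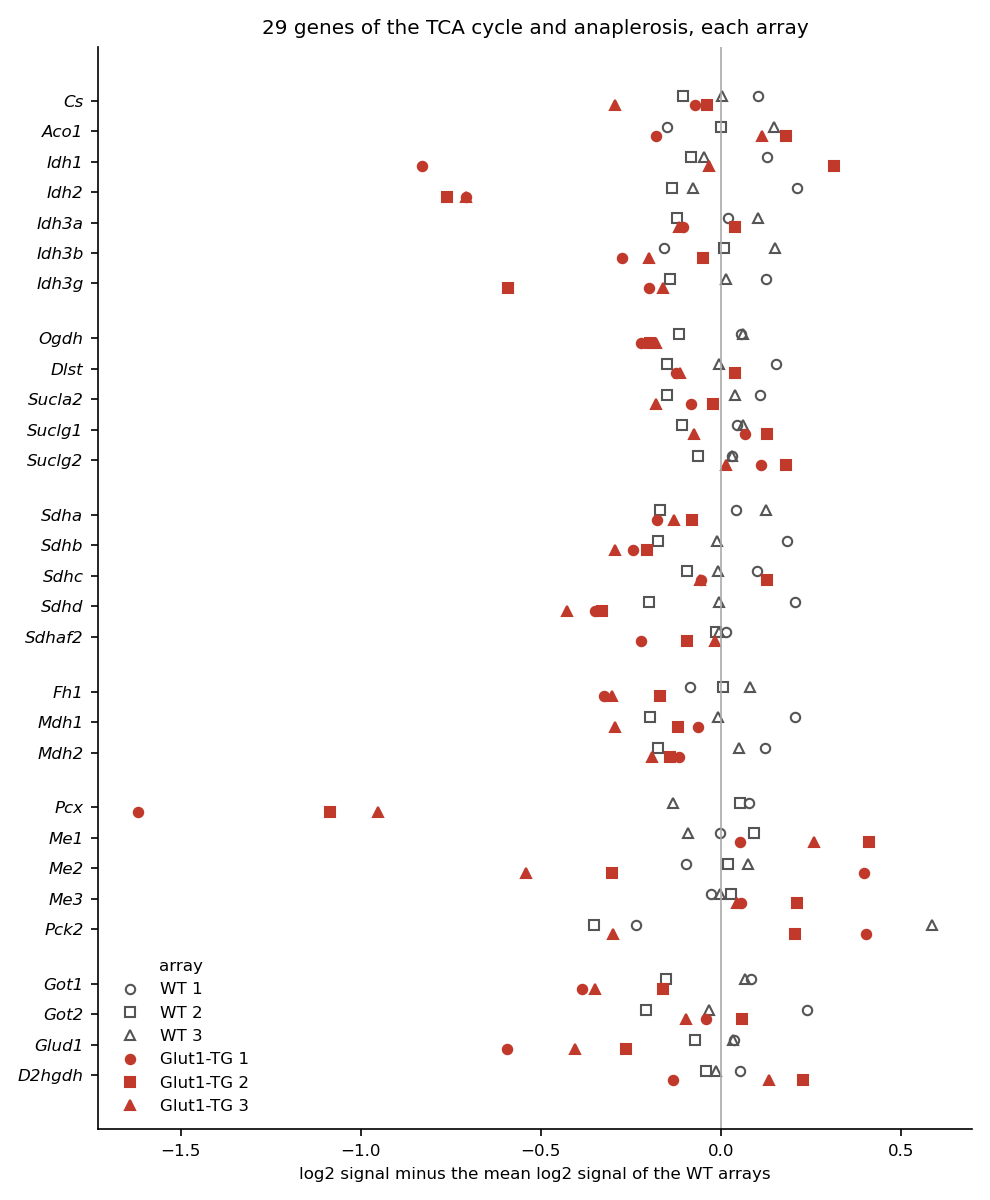
Log2 signal of each of the 29 genes on each array, minus the mean log2 signal of the 3 WT arrays, with open grey symbols for WT, filled red symbols for Glut1-TG and the shape giving the replicate number. Genes are ordered by role. All 3 Glut1-TG arrays of Pcx and Idh2 lie far to the left of WT, Idh1 has 1 such array, and Me2, Pck2 and Idh1 have the widest spread among the Glut1-TG or WT arrays.

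Upstream sequence is shown for the 4 genes that met the study's thresholds, because they had the 4 lowest log2 fold changes of the 29. The 250 bases before each annotated start come from RefSeq for GRCm38.p6 and are given 5′ to 3′ on the gene's strand. Capitals mark the letters of a searched motif on either strand. The 5 windows are Idh2 at chr7:80115351-80115600 on the minus strand, Pcx at chr19:4510222-4510471 and, for a second start, at chr19:4594069-4594318, both on the plus strand, Glud1 at chr14:34310477-34310726 on the plus strand, and Sdhd at chr9:50603850-50604099 on the minus strand.
Idh2: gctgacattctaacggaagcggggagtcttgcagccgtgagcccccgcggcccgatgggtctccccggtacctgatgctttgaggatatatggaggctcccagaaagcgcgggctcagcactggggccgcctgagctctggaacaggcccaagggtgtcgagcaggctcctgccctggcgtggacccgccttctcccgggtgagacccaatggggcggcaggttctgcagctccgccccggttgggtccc
Pcx, first start: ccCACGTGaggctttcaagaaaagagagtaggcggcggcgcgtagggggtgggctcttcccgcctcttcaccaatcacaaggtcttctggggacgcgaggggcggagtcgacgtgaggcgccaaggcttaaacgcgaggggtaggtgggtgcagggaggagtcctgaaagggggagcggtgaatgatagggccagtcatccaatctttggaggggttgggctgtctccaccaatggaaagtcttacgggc
Pcx, second start: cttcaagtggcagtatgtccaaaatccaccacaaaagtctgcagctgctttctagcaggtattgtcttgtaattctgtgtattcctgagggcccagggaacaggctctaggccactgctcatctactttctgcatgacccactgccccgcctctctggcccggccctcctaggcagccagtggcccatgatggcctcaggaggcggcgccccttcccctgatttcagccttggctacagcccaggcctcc
Glud1: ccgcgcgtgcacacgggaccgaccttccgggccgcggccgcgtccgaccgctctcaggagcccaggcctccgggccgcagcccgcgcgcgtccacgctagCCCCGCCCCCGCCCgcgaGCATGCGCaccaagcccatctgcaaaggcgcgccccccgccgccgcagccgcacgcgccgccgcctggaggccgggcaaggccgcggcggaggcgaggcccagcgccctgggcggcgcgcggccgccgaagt
Sdhd: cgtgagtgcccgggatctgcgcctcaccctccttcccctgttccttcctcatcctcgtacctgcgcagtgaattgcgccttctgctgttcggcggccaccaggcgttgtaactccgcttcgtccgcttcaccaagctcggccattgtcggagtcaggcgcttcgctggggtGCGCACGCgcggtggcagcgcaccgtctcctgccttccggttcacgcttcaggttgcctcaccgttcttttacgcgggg
The motifs searched were the extended half-site of the estrogen-related receptors (TCAAGGTCA), the NRF1 core (GCGCANGC), the E-box (CACGTG), the cyclic AMP response element (TGACGTCA), a GC-box of the KLF family (CCCCGCCC) and a CACCC box (CCACACCC). Each was sought on both strands in windows from 250 bases before to 50 after the start. RefSeq windows were found for 27 of the 30 genes, 35 windows in all, and none was listed for Idh3a, Sdhc and Me2. The NRF1 core was in 8 of the 35 windows (22.9%), from 6 genes including Sdhd and Glud1, and in 9.95% of all 32851 windows. The KLF GC-box was in 14 windows (40%), from 12 genes including Glud1, and in 17.6% of all windows. The E-box was in 5 (14.3%), from Ogdh, Ogdhl and Pcx, and in 7.15% of all windows. The cyclic AMP response element was in 4 (11.4%), from Mdh2 and Ogdh, and in 1.79% of all. The estrogen-related receptor half-site was in 1, that of Sdhd, where it lay after the start, and in 0.423% of all, and the CACCC box was in 0 and in 3.56% of all. Several windows of Ogdh overlap and hold the same letters, so windows are not independent. The printed window of Idh2 and the second window of Pcx held none of these letters, and the 2 GC-boxes of Glud1 overlap each other. These matches describe letters and are not measured binding sites.

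The first steps of the cycle form citrate and convert it through isocitrate to oxoglutarate. Idh2 encodes the mitochondrial isocitrate dehydrogenase that uses NADP. Its probe set 1450048_a_at had signals of 36143, 28408 and 29541 in the WT arrays and 19099.9, 18395 and 19096 in the Glut1-TG arrays. The highest Glut1-TG array was below the lowest WT array, and the 3 Glut1-TG arrays were close to each other. Mean signal was 31364 ± 4177 (SD, n = 3) in WT and 18864 ± 406 (SD, n = 3) in Glut1-TG, a log2 fold change of -0.73 (SE 0.10, 95% confidence interval -0.95 to -0.50, adjusted p = 0.00953, limma). Idh2 kept its call without each of the 6 arrays in turn. It lost it without an intensity trend in limma (adjusted p = 0.211) and when all its probe sets were averaged (log2 fold change -0.32, adjusted p = 0.654). A dim second probe set, 1453601_at, read 313.5, 111.6 and 211.3 in WT and 286.3, 168.6 and 184.5 in Glut1-TG, with a log2 fold change of 0.09 (SE 0.41).

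None of the other genes of these steps passed limma. Cs, citrate synthase, was at 31112, 26921 and 29038 in WT and 27574, 28199 and 23643 in Glut1-TG, and the groups overlapped with a log2 fold change of -0.13 (95% interval -0.35 to 0.08). Its 2 further probe sets gave -0.15 and -0.14. The NAD-dependent isocitrate dehydrogenase of the cycle is built from Idh3a, Idh3b and Idh3g, of which Idh3a is the catalytic subunit. Idh3a signals were 19423, 17599 and 20582 in WT and 17812, 19712 and 17675 in Glut1-TG, which overlapped, with a log2 fold change of -0.06 (95% interval -0.26 to 0.14). Idh3g, a regulatory subunit, read 22401, 18647 and 20766 in WT and 17895, 13649 and 18372 in Glut1-TG. All Glut1-TG arrays were below the WT arrays, replicate 2 by the most, and the log2 fold change of -0.32 (SE 0.12) did not pass (adjusted p = 0.381, limma). A second Idh3g probe set, 1416789_at, gave -0.12 with overlapping groups. Idh3b was at -0.17 (adjusted p = 0.549). Aco1, the cytosolic aconitase that also serves as an iron-sensing RNA-binding protein, was at 0.04, and Idh1, the cytosolic counterpart of Idh2, was at -0.18 with a wide interval (-0.71 to 0.35), since its Glut1-TG signals ran from 1209 to 2674.

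Because Idh2 and the Idh3 subunits act on the same substrate, the log2 ratio of Idh2 to Idh3a was taken within each array. The ratio differed by -0.67 between groups, with 0.70 ± 0.19 for WT and 0.037 ± 0.12 for Glut1-TG (SD, n = 3 each), and the groups did not overlap (two-sided exact permutation p = 0.1, adjusted 0.28). When probe sets were averaged the difference was -0.37 and the groups overlapped (exact permutation p = 0.3). With 3 arrays against 3, 0.1 is the smallest p that this test can give, so none of the 14 gene pairs compared in this way could pass. The ratio of Idh2 to Idh1 differed by -0.54 with overlap (exact permutation p = 0.4).

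Oxoglutarate is next oxidized to succinyl-CoA by the oxoglutarate dehydrogenase complex, and succinyl-CoA ligase then forms succinate. Of the 5 genes of these steps tested, 0 passed limma and their log2 fold changes ran from -0.20 to 0.10. Ogdh, the decarboxylating component, read 24626, 21857 and 24719.9 in WT and 20314, 20688 and 20915 in Glut1-TG. The groups did not overlap, the Glut1-TG arrays being within a narrow range, and the log2 fold change was -0.20 (SE 0.08, adjusted p = 0.405, limma). A second Ogdh probe set, 1445632_at, read 1023, 1037 and 1097 in WT and 762.9, 717.9 and 771.7 in Glut1-TG. It too was without overlap, at a log2 fold change of -0.49 (SE 0.12, adjusted p = 0.175 over all probe sets, limma).

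Dlst, the succinyltransferase core of the same complex, was at 10846, 8806 and 9733 in WT and 8949.6, 10024 and 9032 in Glut1-TG. These groups overlapped, with a log2 fold change of -0.07 (95% interval -0.28 to 0.15), while the dim probe set 1431011_at gave -0.78 (SE 0.33), its lowest value being the 206.3 of Glut1-TG replicate 3. Succinyl-CoA ligase pairs the shared subunit Suclg1 with either Sucla2, which makes the ADP-using form, or Suclg2, which makes the GDP-using form. Their log2 fold changes were 0.04 for Suclg1 (95% interval -0.15 to 0.23), -0.09 for Sucla2 (-0.30 to 0.11) and 0.10 for Suclg2 (-0.07 to 0.28). Within arrays, the log2 ratio of Sucla2 to Suclg2 was 1.29 ± 0.081 in WT and 1.10 ± 0.0052 in Glut1-TG (SD, n = 3 each). The groups of ratios did not overlap, with a difference of -0.20 (exact permutation p = 0.1, adjusted 0.28), although neither gene passed on its own. The difference was -0.14 under quantile normalization and -0.07, with overlap, when probe sets were averaged. That average gives equal weight to dim Sucla2 probe sets, among them 1430402_at under the filter.

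Succinate dehydrogenase is both a cycle enzyme and complex II of the respiratory chain. Its 5 genes had 0 past limma, and 3 of them had Glut1-TG arrays below all WT arrays, which held for 8.77% of all genes. Sdhd, a membrane anchor, read 21871, 16501 and 18880 in WT and 14872, 15093 and 14106 in Glut1-TG. WT replicate 1 was highest and the Glut1-TG arrays lay together below the lowest WT array, at a mean of 19084 ± 2691 against 14690.3 ± 518 (SD, n = 3 each). The log2 fold change was -0.37 (SE 0.10, adjusted p = 0.206, limma), which met the study's thresholds and not limma's. A second Sdhd probe set, 1437489_x_at, gave 0.18 with overlapping groups.

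Sdhb, the iron-sulfur subunit, was at 38076, 29669.5 and 33233 in WT and 28261, 29059.7 and 27329 in Glut1-TG. The gap between the groups was small beside the range of the WT arrays, and the log2 fold change was -0.25 (SE 0.10, adjusted p = 0.402, limma). Sdha, the flavoprotein, was at -0.13 (95% interval -0.34 to 0.08) and Sdhc, the other anchor, at 0.006 (-0.19 to 0.20), both with overlap. Sdhaf2, which helps to attach the flavin to Sdha, read 2419, 2374 and 2388 in WT and 2052, 2241 and 2368 in Glut1-TG. The highest Glut1-TG array was close under the lowest WT array, and the log2 fold change of -0.11 (adjusted p = 0.686) became 0.08 after centring on the cardiomyocyte markers. A second Sdhaf2 probe set, 1452941_at, was also without overlap, at a log2 fold change of -0.34 (SE 0.15, adjusted p = 0.502 over all probe sets, limma).

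Fumarase and malate dehydrogenase complete the cycle. Fh1, fumarase, read 16519, 17619 and 18542 in WT and 14007, 15612 and 14228 in Glut1-TG. All Glut1-TG arrays were below the WT arrays, with a log2 fold change of -0.26 (SE 0.08) that did not pass (adjusted p = 0.271, limma). Mdh2, the mitochondrial malate dehydrogenase, was at 37702, 30640.1 and 35820.3 in WT and 31944, 31382 and 30302 in Glut1-TG. The groups overlapped, at a log2 fold change of -0.15 (95% interval -0.36 to 0.06). The cytosolic enzyme Mdh1 was at -0.16, and the ratio of Mdh1 to Mdh2 within arrays differed by -0.01 (exact permutation p = 0.9).

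Pcx encodes pyruvate carboxylase, the mitochondrial enzyme that makes oxaloacetate from pyruvate. Its log2 fold change was the lowest of the 29. Probe set 1416383_a_at read 781.2, 767.2 and 675.5 in WT and 240.8, 348.6 and 382.1 in Glut1-TG. Every Glut1-TG array was well below the lowest WT array, replicate 1 being the lowest. Mean signal was 741.3 ± 57.4 in WT and 323.8 ± 73.8 in Glut1-TG (SD, n = 3 each), so WT was 2.29 times Glut1-TG, and the log2 fold change was -1.22 (SE 0.20, 95% interval -1.68 to -0.76, adjusted p = 0.0309, limma). Without WT replicate 1, 2 or 3 the adjusted p was 0.142, 0.138 and 0.113 at log2 fold changes of -1.18, -1.19 and -1.28, and it was 0.172 without an intensity trend in limma. After centring on the cardiomyocyte markers the log2 fold change was -1.03 (adjusted p = 0.0779).

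The array also holds 4 control probe sets designed on mouse pyruvate carboxylase, which were left out of the fit. The 3' control read 442.8, 429.1 and 552.8 in WT and 139.4, 128.4 and 255.3 in Glut1-TG. One of the middle controls, MB, read 187.3, 259 and 215 in WT and 45.7, 120.8 and 107.4 in Glut1-TG. In 3 of the 4 controls, the 3' one and both middle ones, all Glut1-TG arrays were below all WT arrays. The other middle control, MA, read 94 to 203.8 in WT and 21 to 48.1 in Glut1-TG. Its Glut1-TG values were all under the signal of 115 used as a filter. The Glut1-TG mean of MB, 91.3, was under that signal as well. The sizes of both differences are therefore uncertain. In the 5' control the groups overlapped, with 190.3, 235 and 344.9 in WT and 275.9, 155.8 and 244.7 in Glut1-TG. The 5' control thus had a log2 difference of -0.18 where the 3' control had -1.51. The beta-actin 3' to 5' ratio given above was lower in Glut1-TG. That of GAPDH overlapped, at 0.817 to 0.827 in WT and 0.789 to 0.830 in Glut1-TG. The part of RNA integrity in the Pcx pattern was not tested.

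**Figure D2:**
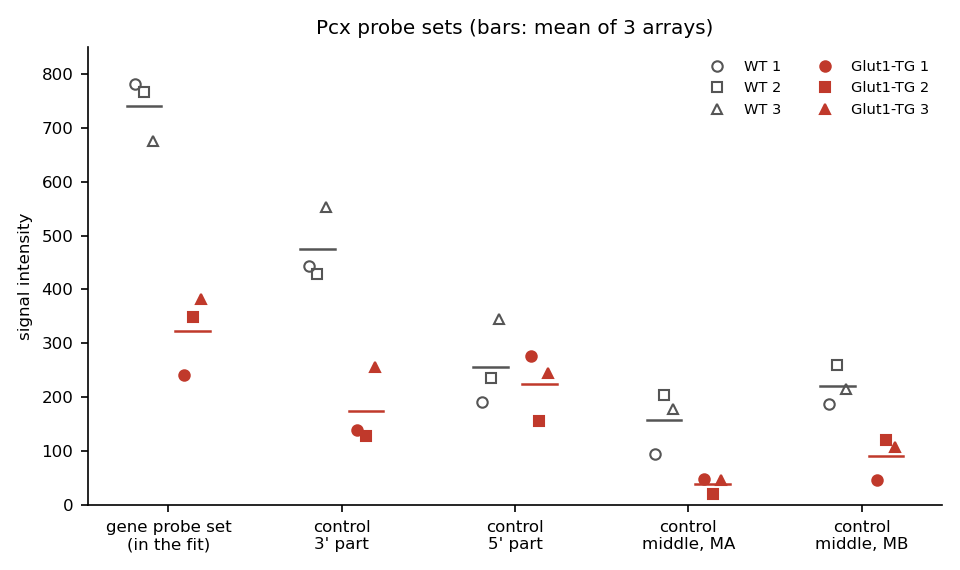
Signal of 5 pyruvate carboxylase probe sets on each array, with WT in open grey and Glut1-TG in filled red symbols and bars at the mean of 3 arrays. The gene probe set used in the fit and the 3' and middle controls were lower in each Glut1-TG array than in any WT array, whereas the 5' control overlapped (means of 256.7 and 225.5).

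Malic enzymes turn malate into pyruvate, and malate may also be formed in the reverse direction. Me1, the cytosolic form, read 3778, 4030.3 and 3555 in WT and 3923, 5036 and 4528 in Glut1-TG. Its highest WT array exceeded the lowest Glut1-TG array, and the log2 fold change of 0.24 (SE 0.11), the highest of the 29, did not pass (unadjusted p = 0.0453, adjusted p = 0.432, limma). A second Me1 probe set gave 0.40 with overlap.

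Me3, the mitochondrial NADP form, was at 2358, 2446 and 2397 in WT and 2495, 2781 and 2475 in Glut1-TG. It was the single gene with all Glut1-TG arrays above WT, at a log2 fold change of only 0.10 (SE 0.09, adjusted p = 0.702, limma). Me2, the mitochondrial NAD-dependent form, was dim, at 243.4, 263.7 and 274.4 in WT and 342.9, 211 and 178.7 in Glut1-TG. Its Glut1-TG arrays lay on both sides of WT, so its interval was wide (-0.81 to 0.52), and its second probe set gave 0.59 against -0.15 for the first. Pck2, the mitochondrial phosphoenolpyruvate carboxykinase, withdraws oxaloacetate and was near the filter at 130.4 to 250 in WT and 135.2 to 220 in Glut1-TG. The data set no narrow bound on Pck2 (95% interval -0.75 to 0.96), and the ratio of Pcx to Pck2 differed by -1.32 with overlapping groups (exact permutation p = 0.2).

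Aminotransferases and glutamate dehydrogenase connect the cycle to aspartate and glutamate. Glud1, glutamate dehydrogenase, forms oxoglutarate from glutamate, and its probe set of highest signal read 3408, 3158 and 3403 in WT and 2199, 2768 and 2508 in Glut1-TG. The Glut1-TG arrays were all below the WT arrays, at means of 2492 ± 285 against 3323 ± 143 (SD, n = 3 each). The log2 fold change was -0.42 (SE 0.10, 95% interval -0.65 to -0.19) and the adjusted p was 0.128, the smallest among the 27 genes that did not pass limma. The second probe set, 1416209_at, read 3707, 3196 and 3115 in WT and 2273, 2533 and 2503 in Glut1-TG. It had a log2 fold change of -0.45 (SE 0.10, adjusted p = 0.128 over all probe sets, limma), so both Glud1 probe sets were without overlap and similar in size.

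Got1, the cytosolic aspartate aminotransferase of the malate-aspartate shuttle, read 23635, 20070.4 and 23341 in WT and 17052, 19953 and 17507 in Glut1-TG. The highest Glut1-TG array was just under the lowest WT array, and the log2 fold change was -0.30 (SE 0.10, adjusted p = 0.291, limma). Got2, the mitochondrial form, was at 29457, 21611 and 24402 in WT and 24260.4, 26014 and 23348 in Glut1-TG. Those groups overlapped (log2 fold change -0.03, 95% interval -0.28 to 0.23), but a second bright Got2 probe set, 1417716_at, was above WT in all Glut1-TG arrays, at 8407, 7248 and 7179 in WT and 10835, 8619 and 8646 in Glut1-TG. That probe set had a log2 fold change of 0.29 (SE 0.11, adjusted p = 0.427 over all probe sets, limma), so the direction of Got2 was not settled. The ratio of Got1 to Got2 within arrays was lower in every Glut1-TG array than in WT. The difference was -0.27 on the log2 scale (exact permutation p = 0.1, adjusted 0.28). It was -0.61 when probe sets were averaged, but that average gives equal weight to dim Got2 probe sets, among them 1430397_at under the filter. The size of the averaged difference is therefore uncertain. D2hgdh, which oxidizes the D form of hydroxyglutarate back to oxoglutarate, was at 0.08 (95% interval -0.20 to 0.35).

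**Figure D3:**
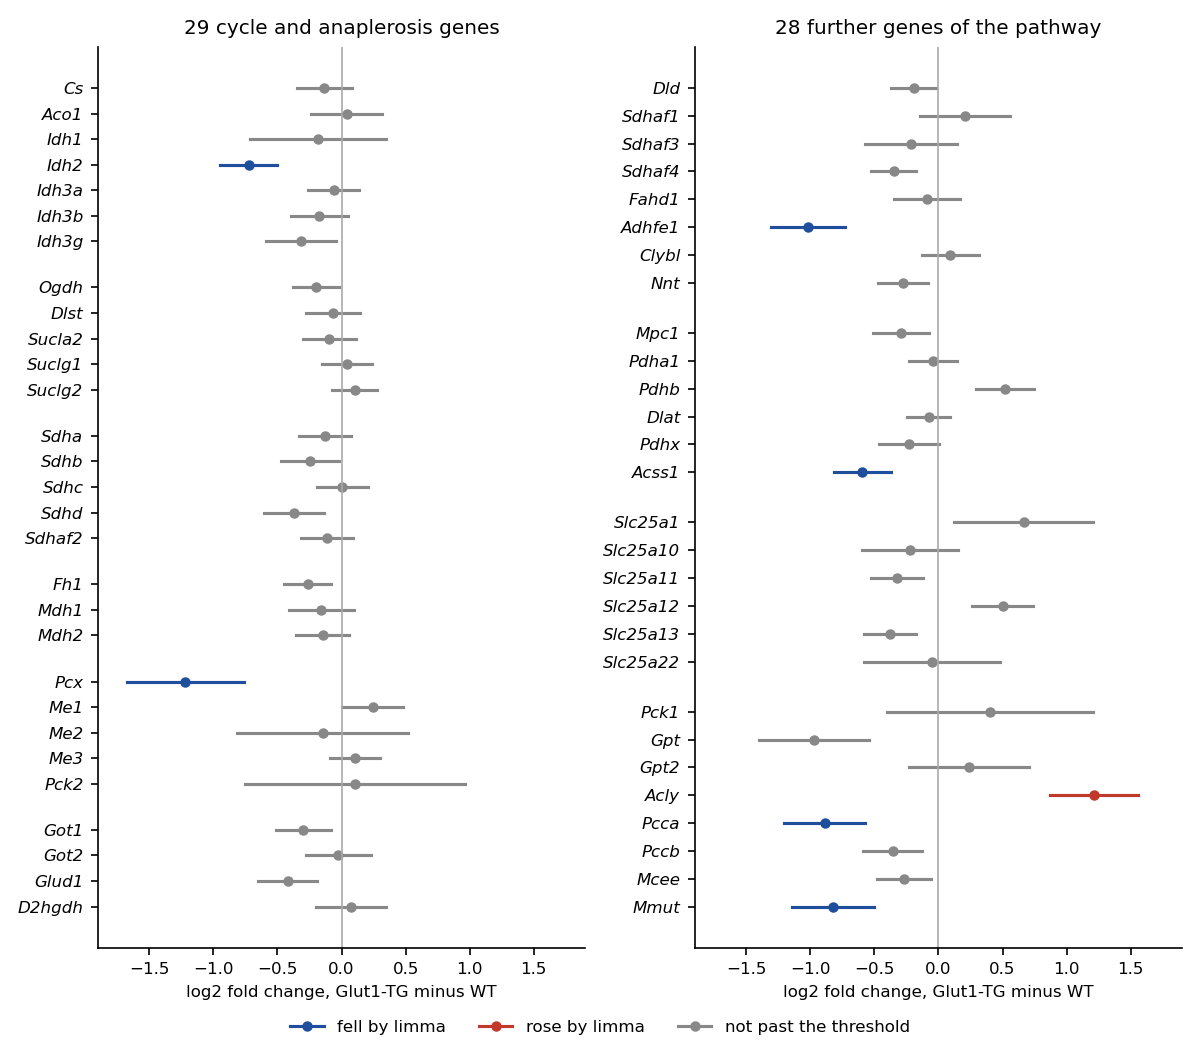
Log2 fold change (point) and 95% confidence interval (line) from limma for the 29 genes tested, on the left, and 28 further genes of the pathway, on the right, both grouped by role. Blue marks genes that fell, red a gene that rose and grey genes that did not pass an adjusted p of 0.05. Idh2 and Pcx are the 2 blue genes on the left, and most grey intervals on the left cover 0.

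Among the 29, a gene could be read through several probe sets. In all, 31 further probe sets from 23 genes were above the filter, 16 with a log2 fold change below 0 and 15 above, and 0 of them passed limma over all 27022 probe sets above the filter, of which 118 did. In 6 genes (Idh2, Idh3a, Sdhd, Dlst, Me2 and Got2) a further probe set had the opposite sign at over 0.3 on the log2 scale or differed by over 0.5. For Got2 it was the dim 1447768_at, at 0.39, and not 1417716_at. For Idh3a it was 1447701_x_at, at 0.35. Which transcripts each probe set detects was not tested.

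**Figure D4:**
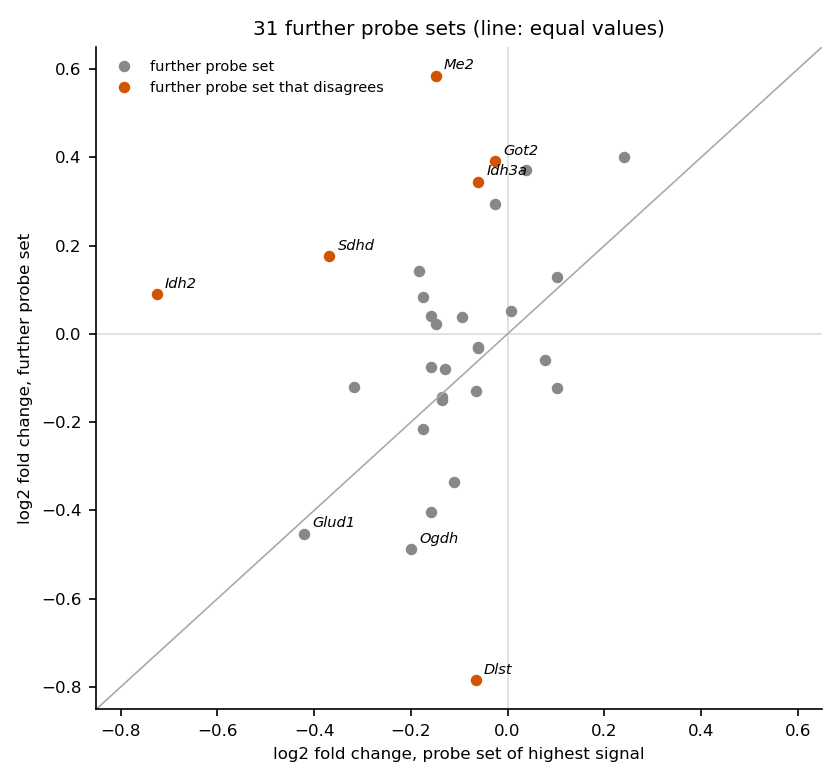
Log2 fold change of each of 31 further probe sets against that of the probe set of highest signal for the same gene, with a line of equal values. Orange points are the 6 that disagreed by the rule in the text. Glud1 lies on the line below 0 for both probe sets, and Idh2 and Sdhd lie above the line because their further probe sets were at 0.09 and 0.18.

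Further genes around the cycle were taken from a list by role, of which 28 were tested. The list was drawn up with earlier results of these data known. It includes Pcca, Pccb and Mmut (Mut in the paper). The paper measured them by qRT-PCR among selected genes of branched-chain amino acid degradation. It reports that pathway as lower on these arrays and key enzymes of it as lower by qRT-PCR too. Counts set beside those of all genes thus describe the list and are no independent support. Of these, 4 fell and 1 rose, against 0.599% and 0.258% of all genes. The median log2 fold change was -0.22, against 0.02 over all genes. The Glut1-TG arrays lay below all WT arrays for 14 of the 28 (8.77% of all genes) and above for 4 (8.67% of all genes). Mdh1b was under the filter. Adhfe1, a transhydrogenase that couples oxoglutarate to hydroxyglutarate, fell by 1.02 on the log2 scale (SE 0.13, adjusted p = 0.0066, limma), from 2159, 2307 and 2099.8 in WT to 1153, 1225 and 895 in Glut1-TG. Pcca, which encodes the biotin-bearing part of propionyl-CoA carboxylase, fell by 0.89 (SE 0.14, adjusted p = 0.0243), from 4073, 3938 and 3815 to 1703, 2628 and 2166. Mmut, the methylmalonyl-CoA mutase that completes the path from propionyl-CoA to succinyl-CoA, fell by 0.83 (SE 0.14, adjusted p = 0.0353), from 5208, 4615 and 4329 to 3279, 2164 and 2636. For all 3 genes the groups did not overlap. The other genes of that path were Pccb at -0.36 (adjusted p = 0.214) and Mcee at -0.27 (adjusted p = 0.335), both also without overlap.

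Acss1, which activates acetate in mitochondria, fell by 0.59 (SE 0.10, adjusted p = 0.0306, limma), from 9599, 8566 and 7946 in WT to 5201, 5996 and 6093 in Glut1-TG. Acly, the cytosolic enzyme that splits exported citrate into acetyl-CoA and oxaloacetate, rose, from 1827, 1967 and 1568 in WT to 3563, 5285 and 3715 in Glut1-TG. Its groups were far apart, at a log2 fold change of 1.21 (SE 0.15, adjusted p = 0.0066, limma). Adhfe1 and Acly kept their calls without each of the 6 arrays in turn. Acss1 lost its call whichever array was left out, Mmut in all cases but the one without Glut1-TG replicate 1, and Pcca without any WT array or Glut1-TG replicate 3. With probe sets averaged, or without an intensity trend in limma, 0 of the 5 calls held, and after centring those of Adhfe1 and Acly did.

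Several carriers and entry enzymes met the study's thresholds without passing limma on the signals as deposited. Slc25a12 and Slc25a13 encode related mitochondrial aspartate-glutamate carriers, and their log2 fold changes had opposite signs. Slc25a12 read 5585, 5506 and 5739 in WT and 8193, 9035 and 6760.3 in Glut1-TG (log2 fold change 0.50, SE 0.11, adjusted p = 0.0797, limma). Slc25a13 read 3138, 2910 and 3432 in WT and 2401, 2375 and 2507 in Glut1-TG (log2 fold change -0.38, SE 0.09, adjusted p = 0.128). Neither pair of groups overlapped. Gpt, the cytosolic alanine aminotransferase, read 1410.1, 1206 and 1219 in WT and 576.8, 895.2 and 531.6 in Glut1-TG (log2 fold change -0.97, SE 0.19, adjusted p = 0.0551). Pdhb, a pyruvate dehydrogenase subunit, read 25404, 20628 and 23226 in WT and 33460.1, 35374 and 30241 in Glut1-TG (log2 fold change 0.52, SE 0.10, adjusted p = 0.0515). These 3 genes near the threshold, Slc25a12, Gpt and Pdhb, passed limma under some alternatives. Pdhb and Slc25a12 rose under quantile normalization and after centring, Pdhb and Gpt passed with the offset and the strict filter, Slc25a12 passed without Glut1-TG replicate 3 and Gpt without Glut1-TG replicate 2. Slc25a1, the citrate carrier, was at 0.67 (SE 0.24, adjusted p = 0.354). Dld, Nnt, Mpc1 and Pdhx were also without overlap, at -0.19, -0.27, -0.29 and -0.23, and met neither threshold. Sdhaf4, an assembly factor of succinate dehydrogenase, was at -0.35 (adjusted p = 0.107) and Slc25a11, the oxoglutarate carrier, at -0.32 (adjusted p = 0.208).

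The scaling of the arrays moved the small differences of the 29 genes together. Quantile normalization turned the sign of 5 of them and centring on the cardiomyocyte markers that of 12, none of which had passed limma. Relative to the median of all genes under the same scaling, the median of the 29 lay 0.15 lower as deposited and 0.03 lower under quantile normalization. Centring adds the same amount to every log2 fold change and leaves this distance as it was. Idh2 was at -0.73, -0.58 and -0.53 and Pcx at -1.22, -1.29 and -1.03 under the same 3 scalings.

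**Figure D5:**
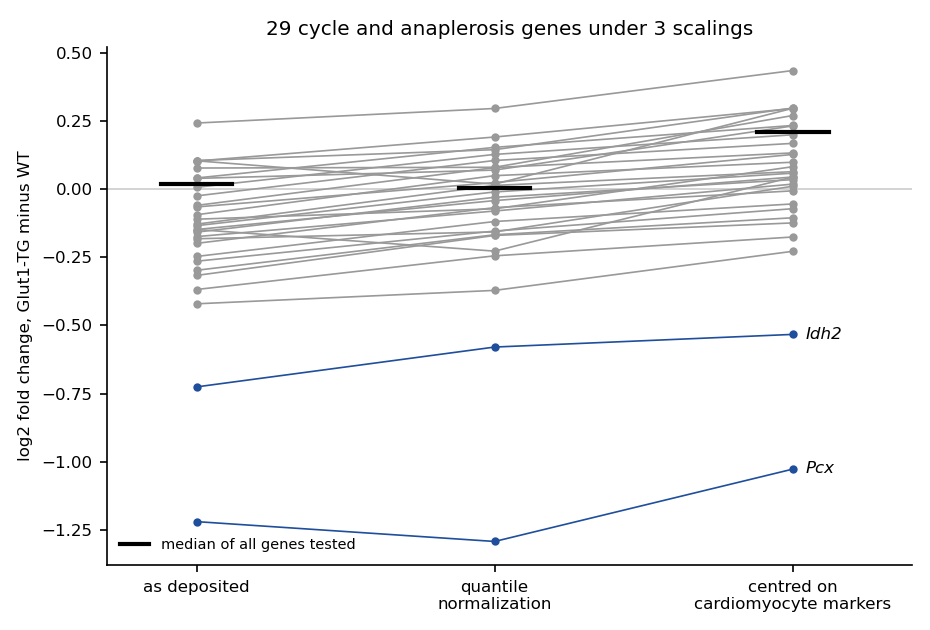
Log2 fold change of the 29 genes with the signals as deposited, after quantile normalization and after centring each array on 14 cardiomyocyte markers, with 1 line per gene and black bars at the median of all genes tested. Most lines shift upward together to the right, as does the median of all genes after centring, while Idh2 and Pcx stay below the other lines.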

How the data were processed

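Left ventricular RNA was labelled by the authors as biotinylated cRNA for Affymetrix mouse arrays and scanned with GCOS, per the labels, with no version given. The deposited table holds a linear signal intensity for each of 45101 probe sets, without detection calls. Each array had a trimmed mean of 500 (2% cut from each end), so signals were used as scaled by the authors. The number of arrays limits the precision, and the labels give no batch.

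No control probe set (64 in all) entered the tests, and 48 values below 1 were raised to 1 before log2. Platform annotation gave 34945 probe sets 1 symbol. Filtering out the lowest 40% of probe sets (signal under 115) left 13178 genes. The contrast of Glut1-TG with WT had no covariates and used limma 3.58.1 in R 4.3.3 (lmFit, eBayes with an intensity trend) with Benjamini-Hochberg adjustment over all genes. The fit was run on simulated data with noise drawn independently for each probe set. That check does not cover shifts that genes share on an array. The study's thresholds were applied with the methods' t-test, since the sources name no test for the arrays. Pairs were compared by exact permutation over 20 groupings of arrays.

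Genes, lists and the naming rule were chosen with earlier results of these data known. Each of the 29 genes was named, with each array's signal for those past a threshold, without overlap, brightest in their role, or with disagreeing probe sets. Of the further genes, those past limma or the study's thresholds were named, and 5 others (Mcee, Dld, Nnt, Mpc1 and Pdhx) after their values were seen. Alternatives were quantile normalization, an offset of 50, no filter or a filter keeping the upper 40%, averaged probe sets, each array left out, a replicate block, limma without a trend, the t-test adjusted or in Welch's form, and centring on cardiomyocyte markers. Averaging gave each probe set of a gene equal weight, including those under the filter.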

Additional observations from a re-analysis of the deposited data

How the results depend on the processing

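The fall of Idh2 and Pcx kept its direction under all alternatives run. The count of 2 genes that fell was 1 with averaged probe sets, the replicate block or centring, and 0 without a trend or by the adjusted t-test, and ranged from 1 to 2 with 1 array left out. The count that rose stayed at 0 under each of these. The genes lower by the study's thresholds numbered 2 after centring and between 2 and 6 with 1 array left out (chosen after seeing the data), and those higher between 0 and 1. Groups without overlap numbered 4 below after centring, and 5 above under quantile normalization and 7 after centring. The median log2 fold change was -0.031 under quantile normalization and 0.058 after centring. With 1 array left out it ran from -0.17 (without WT replicate 2) to -0.086 (without WT replicate 1). Of the further pathway genes, those that fell numbered 0 with averaged probe sets, without a trend and by the adjusted t-test, 1 after centring and 1 to 3 with 1 array left out. Those that rose numbered 3 under quantile normalization and after centring, 2 with the offset or the strict filter, 0 with averaged probe sets, without a trend and by the adjusted t-test, and 1 to 2 with 1 array left out. The cause of these shifts was not tested.

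Signs turned only in genes that had not passed limma. After centring these were Cs 0.058, Idh1 0.0099, Idh3a 0.13, Idh3b 0.018, Dlst 0.13, Sucla2 0.098, Sdha 0.063, Sdhaf2 0.082, Mdh1 0.034, Mdh2 0.044, Me2 0.044 and Got2 0.17. With averaged probe sets they were Idh3a 0.056, Sucla2 0.043, Mdh1 0.091, Got2 0.31 and Pck2 -0.010, and under quantile normalization Idh3a 0.078, Dlst 0.023, Sucla2 0.049, Sdha 0.013 and Got2 0.10. With 1 array left out, the ranges that crossed 0 were Aco1 -0.036 to 0.15, Idh1 -0.43 to 0.14, Dlst -0.14 to 0.010, Suclg1 -0.013 to 0.097, Sdhc -0.055 to 0.057, Me2 -0.42 to 0.048, Got2 -0.13 to 0.094 and Pck2 -0.072 to 0.40. Of the ratios between partner genes, Mdh1 over Mdh2 was 0.012 under quantile normalization. With averaged probe sets, Mdh1 over Mdh2 was 0.15, Sucla2 over Suclg1 0.0031, Me2 over Me3 0.30, Ogdh over Dlst 0.11 and Sdha over Sdhb -0.12.

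Deviations of same-numbered WT and Glut1-TG arrays correlated at 0.080, -0.033 and 0.055. Those of differently numbered arrays ran from -0.11 to 0.064. With 3 arrays per group, these values cannot decide whether the numbers pair the arrays. With the replicate block, Idh2 had an adjusted p of 0.0386 and Pcx of 0.0685. The strict filter left Me2 and Pck2, and averaging left Me2, untested.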
